A study of Mus musculus with 24 samples.

Results

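Bone marrow from 7 mice that carried the fusion oncogene BCR/ABLp190 under the Sca1 promoter together with a single functional copy of Pax5 (Sca1-BCR/ABLp190+Pax5+/-) was set against 4 arrays of pro-B and pre-B cells from wild-type mice. These 11 arrays were chosen by their titles out of the 24 of the series. The wild-type mice carried neither the oncogene nor the Pax5 mutation, and both groups were housed in a conventional facility with exposure to common pathogens. The labels call each array of a group a biological replicate, name no sort or enrichment for the leukaemic marrow, and give no age or strain. The labels hold 4 wild-type pro-B/pre-B arrays where the study's design text counts 3 mice, and all 4 were used. The tests treat these 4 arrays as independent. If any of them share a mouse, the wild-type spread and the p-values are too small. The Sca1 promoter is active in stem and progenitor cells and not only in B cells. The other 13 arrays are 2 leukaemias with BCR/ABLp190 and both Pax5 copies, preleukaemic pro-B/pre-B cells of 3 Sca1-BCR/ABLp190 mice and of 3 Sca1-BCR/ABLp190+Pax5+/- mice, and B220+ cells of 5 wild-type mice.

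PAX5 is the transcription factor that commits a lymphoid progenitor to the B lineage: it switches on genes such as Cd79a and Blnk and keeps genes of other lineages off. BCR-ABL p190 is the constitutively active tyrosine kinase of Philadelphia-positive acute lymphoblastic leukaemia, and loss of a PAX5 copy is a common second lesion in that disease. Pro-B and pre-B cells rearrange their immunoglobulin genes with the RAG recombinase, display a pre-B cell receptor that contains a surrogate light chain, and divide in bursts under interleukin 7.

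Values are log2 intensities per gene, normalised by the depositors, and a difference of 1 on this scale is a 2-fold change. Each gene was represented by 1 probe set, which gave 19938 genes. Differences were tested with limma and called at a Benjamini-Hochberg adjusted p under 0.05 over all 19938 genes. Of these, 27.9% (5554) were called, 2059 higher (10.3%) and 3495 lower (17.5%) in the leukaemias. Each list count below for this comparison is to be read beside these shares. Of the calls, 37.1% were higher. That share was 19.6% after centring each array on its median and 51.6% after cyclic loess. A total of 3658 genes were called without wild-type array 3 and 3604 without wild-type array 4. At a change of at least 1, 691 genes (3.47%) were higher and 445 (2.23%) lower, 5.7% together. The leukaemias varied more among themselves: the median SD of a gene was 0.169 over the 7 leukaemias and 0.0845 over the 4 wild-type arrays, and Pearson's r between arrays over all genes was 0.954 to 0.983 among leukaemias, against 0.992 to 0.995 among wild-type arrays. By Xist and Y-linked genes, 3 leukaemias came from female and 4 from male mice, and all 4 wild-type arrays from female mice. A fit with sex as a covariate can therefore read the sex effect from the leukaemias alone, and it called 3228 genes. Its fitted change is that of the 3 female leukaemias against the wild-type arrays, the same as in female mice only. A call lost with sex as a covariate is therefore no measure of a sex effect.

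The wild-type arrays carried the genes that define their labelled stages. Igll1, which encodes a chain of the surrogate light chain, read 13.19, 13.19, 13.12 and 13.08 in the wild-type cells on a scale that reached 14.31 at most. Rag1, a subunit of the V(D)J recombinase, read 11.22, 11.56, 11.17 and 11.13 there. The 12 B lineage markers averaged 9.08, 10.71, 8.78, 9.14, 10.31, 10.62 and 9.38 in leukaemias 1 to 7, against 11.84, 11.80, 11.65 and 11.70 in the wild-type cells. Every leukaemia lay below every wild-type array, and leukaemias 2, 5 and 6 were the highest of the 7. Of the 12 genes, 9 were called lower (17.5% of all genes were), or 2 with sex as a covariate.

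Markers of macrophages, megakaryocytes and stroma were higher in the leukaemic marrow. Of 20 monocyte and macrophage markers, 14 were called higher (10.3% of all genes were), with a list median change of 2.76, and the list averaged 9.69, 9.32, 9.67, 9.28, 8.39, 9.19 and 7.49 in leukaemias 1 to 7, against 6.70, 6.60, 6.50 and 6.56 in the wild-type cells. Of 8 megakaryocyte and platelet markers 6 were higher, and the list averaged 7.96 or more in each leukaemia (median 10.06), against 6.90 to 7.06 in the wild-type cells. Of 19 stroma and endothelium markers 14 were higher and 1 lower (0 lower with sex as a covariate and without wild-type array 1, 3 or 4), and the list averaged 7.50 to 9.14 in the leukaemias, against 6.71 to 6.81 in the wild-type cells. Leukaemia 7 was the lowest of the leukaemias on all 3 lists. The stem and progenitor list also had every leukaemia above every wild-type array, at 7.11, 7.68, 7.48, 7.10, 7.20, 7.67 and 6.85 in leukaemias 1 to 7, against 6.69, 6.66, 6.60 and 6.65 in the wild-type cells. Of its 11 genes 4 were called higher (2 without wild-type array 4) and 1 lower. The neutrophil, erythroid and natural killer cell lists overlapped between groups: none of 22 neutrophil markers and none of 10 erythroid markers was called higher, 1 of 22 neutrophil markers was called lower, and 5 of 17 natural killer cell markers were called lower and 1 higher. Neutrophil markers averaged 8.20, 8.75, 7.37, 8.31, 7.21, 9.43 and 6.94 in leukaemias 1 to 7, against 9.09, 8.98, 7.18 and 7.10 in the wild-type cells, so wild-type arrays 1 and 2 stood above arrays 3 and 4. The median change of that list was -0.16, or 0.26 without wild-type array 1 and 0.33 without wild-type array 2. The count of natural killer markers called lower was 3 with the replicate number as a block and 8 without leukaemia 1. In whole marrow, fewer cells of a type and less RNA per cell cannot be told apart, and the part of these marker levels in the results that follow was not tested.

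**Figure D1:**
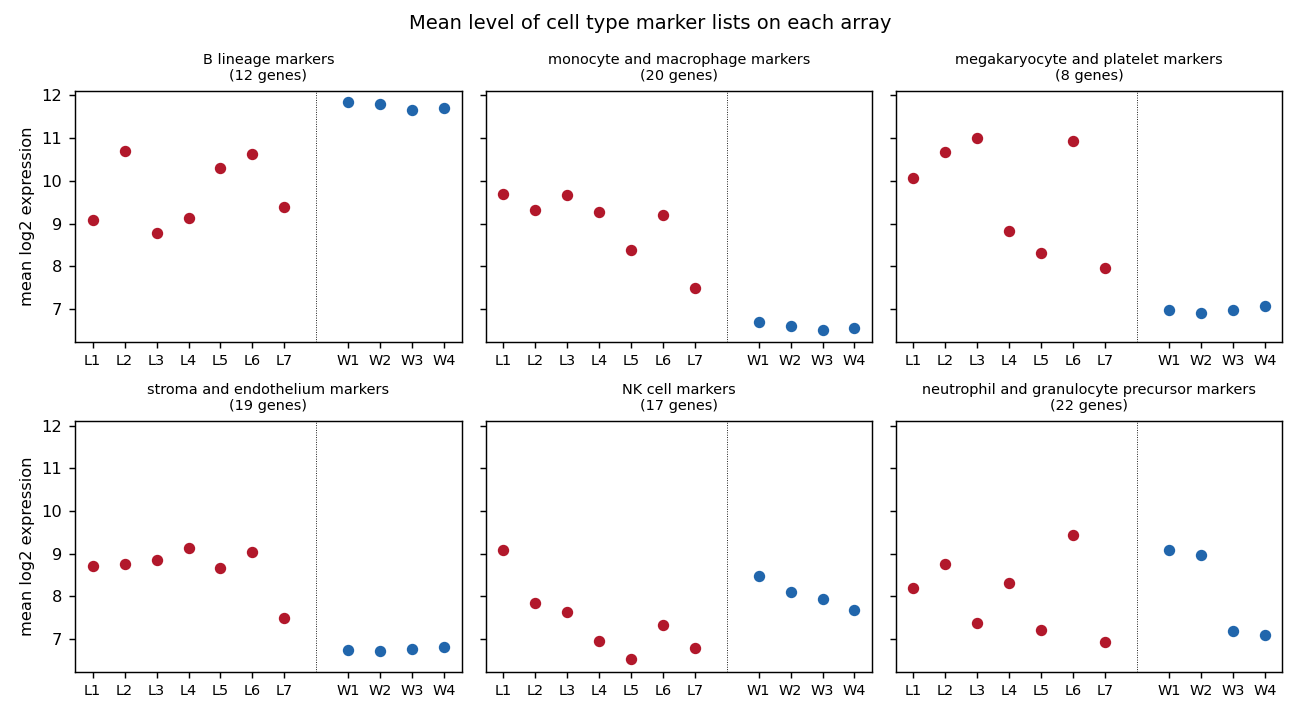
Mean log2 intensity (y axis) of 6 cell type marker lists in each array (x axis; leukaemias 1 to 7 as L1 to L7, then wild-type pro-B/pre-B arrays as W1 to W4). The B lineage list is lower in all 7 leukaemias than in all 4 wild-type arrays, and the macrophage, megakaryocyte and stroma lists are higher in all 7.

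Pax5 itself, the gene with 1 functional copy, read 8.37 at the lowest, 10.30 at the median and 12.06 at the highest in the leukaemias, against 11.86, 11.81, 11.93 and 12.02 in the wild-type cells. In 6 of the 7 leukaemias Pax5 lay below the wild-type range, and in leukaemia 7 above it. The change was -1.83 ± 0.62 (SE) with an adjusted p of 0.0481, a call that stood just inside the threshold. It was lost with sex as a covariate (adjusted p 0.0604), after quantile normalisation (0.0547) and after cyclic loess (0.058). It was also lost when leukaemia 1 (0.07), 2 (0.0633), 3 (0.0694), 5 (0.06) or 6 (0.0618) or wild-type array 1 (0.0981), 2 (0.0888), 3 (0.105) or 4 (0.114) was left out. Without leukaemia 7 the change was -2.17 with an adjusted p of 0.0104.

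The probe sets for the 2 partners of the fusion read the mouse genes and are no measure of the human transgene. Abl1, the kinase gene, differed by -0.11 ± 0.10 (adjusted p 0.428), with 9.96, 10.18 and 10.48 as lowest, median and highest in the leukaemias, against 10.33, 10.19, 10.39 and 10.29 in the wild-type cells. Bcr fell by 0.82 (SE 0.14, adjusted p 0.00158), with 8.83, 9.17 and 9.61 in the leukaemias, against 9.93 to 10.17 in the wild-type cells. The groups overlapped for Abl1 and did not overlap for Bcr.

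The largest falls were in genes of developing B cells and in a few surface and adhesion genes. Cpm, a membrane carboxypeptidase, read 5.37, 6.33 and 7.23 (lowest, median, highest) in the leukaemias, against 11.40, 11.49, 11.58 and 11.56 in the wild-type cells, a change of -5.16 ± 0.32 (adjusted p 2.97e-06). Lgr5, a receptor for R-spondins in Wnt signalling, read 5.64, 5.85 and 5.99 in the leukaemias, against 9.98, 10.46, 10.21 and 10.07 in the wild-type cells. Its change of -4.35 ± 0.09 had an adjusted p of 1.68e-09, and the 7 leukaemias lay close together. Reln, a secreted glycoprotein, changed by -4.00 ± 0.26 (adjusted p 4.44e-06), and Otub2, a deubiquitinase, by -3.92 ± 0.30 (1.46e-05). Polm, the DNA polymerase that fills gaps during V(D)J joining, read 6.23, 6.59 and 7.00 in the leukaemias, against 10.38, 10.12, 10.30 and 10.63 in the wild-type cells. It changed by -3.78 ± 0.16 (adjusted p 2.48e-07).

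Other large falls were less even among the leukaemias. Rag1 read 5.56, 6.04 and 9.50 in the leukaemias, a change of -4.13 ± 0.78 (adjusted p 0.00333), so its highest leukaemia lay nearer to the wild-type arrays than to the lowest leukaemia. Niban3, a gene of B cells, read 8.11, 8.24 and 11.31 in the leukaemias, against 12.71, 12.45, 12.64 and 12.69 in the wild-type cells, with leukaemia 5 apart from the others. Vpreb3, a chaperone of the pre-B cell receptor, read 7.38, 8.03 and 11.66 in the leukaemias, against 13.06, 13.06, 12.95 and 12.99 in the wild-type cells, and its call (-3.85 ± 0.95, adjusted p 0.0133) was lost with sex as a covariate (0.0962) and in female mice only (0.0507). Fcrla, an intracellular Fc receptor-like protein of B cells, changed by -3.92 ± 0.45 (0.000174), and Lef1, a Wnt effector of pro-B cells, by -3.68 ± 0.46 (0.000288). The 10 genes named as the largest falls were picked among called genes whose 2 groups did not overlap, so their separation is no result. Of all genes, 13.7% were lower without overlap.

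The largest rises were led by genes of platelets, macrophages and matrix. Ppbp, a platelet chemokine, read 10.31, 12.98 and 13.62 in the leukaemias, against 6.60, 6.71, 6.73 and 6.61 in the wild-type cells, a change of 5.79 ± 0.60 (adjusted p 9.28e-05). The matrix genes Sparc and Bgn changed by 4.70 ± 0.38 (1.73e-05) and 4.79 ± 0.41 (2.9e-05). Sparc read 9.65, 11.45 and 12.21 in the leukaemias, against 6.74, 6.47, 6.65 and 6.54 in the wild-type cells. Mrc1, the macrophage mannose receptor, changed by 4.30 ± 0.58 (0.000464), Cxcl9, an interferon-induced chemokine, by 4.74 ± 0.77 (0.00143), and Vcam1, an adhesion molecule of stroma and macrophages, by 4.25 ± 0.61 (0.000708). Serping1, the C1 inhibitor of complement, changed by 4.49 ± 0.46 (8.71e-05) and Wfdc17, a whey acidic protein family member, by 4.31 ± 0.68 (0.00115). Ppbp is itself on the megakaryocyte list above, Mrc1 and Vcam1 are on the macrophage list, and Sparc and Bgn on the stroma list. The part of those lists in the other genes was not tested. Leukaemia 7, the lowest on those lists, was also the lowest for Cxcl9 and Serping1, and for the list members Sparc and Bgn.

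Serpinb9d and Sema6d stood in the same top 10. Serpinb9d, of the serpin family whose member Serpinb9 inhibits granzyme B, read 6.63, 10.52 and 11.50 in the leukaemias, against 4.59, 4.66, 4.53 and 4.61 in the wild-type cells (5.44 ± 0.78, adjusted p 0.000674). Sema6d, a transmembrane semaphorin, read 9.32, 10.05 and 10.89 in the leukaemias, against 5.83, 5.69, 5.86 and 5.88 in the wild-type cells (4.20 ± 0.24, adjusted p 1.86e-06). The 10 largest rises were likewise picked among called genes whose groups did not overlap, so their separation is no result. Of all genes, 8.31% were higher without overlap.

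**Figure D2:**
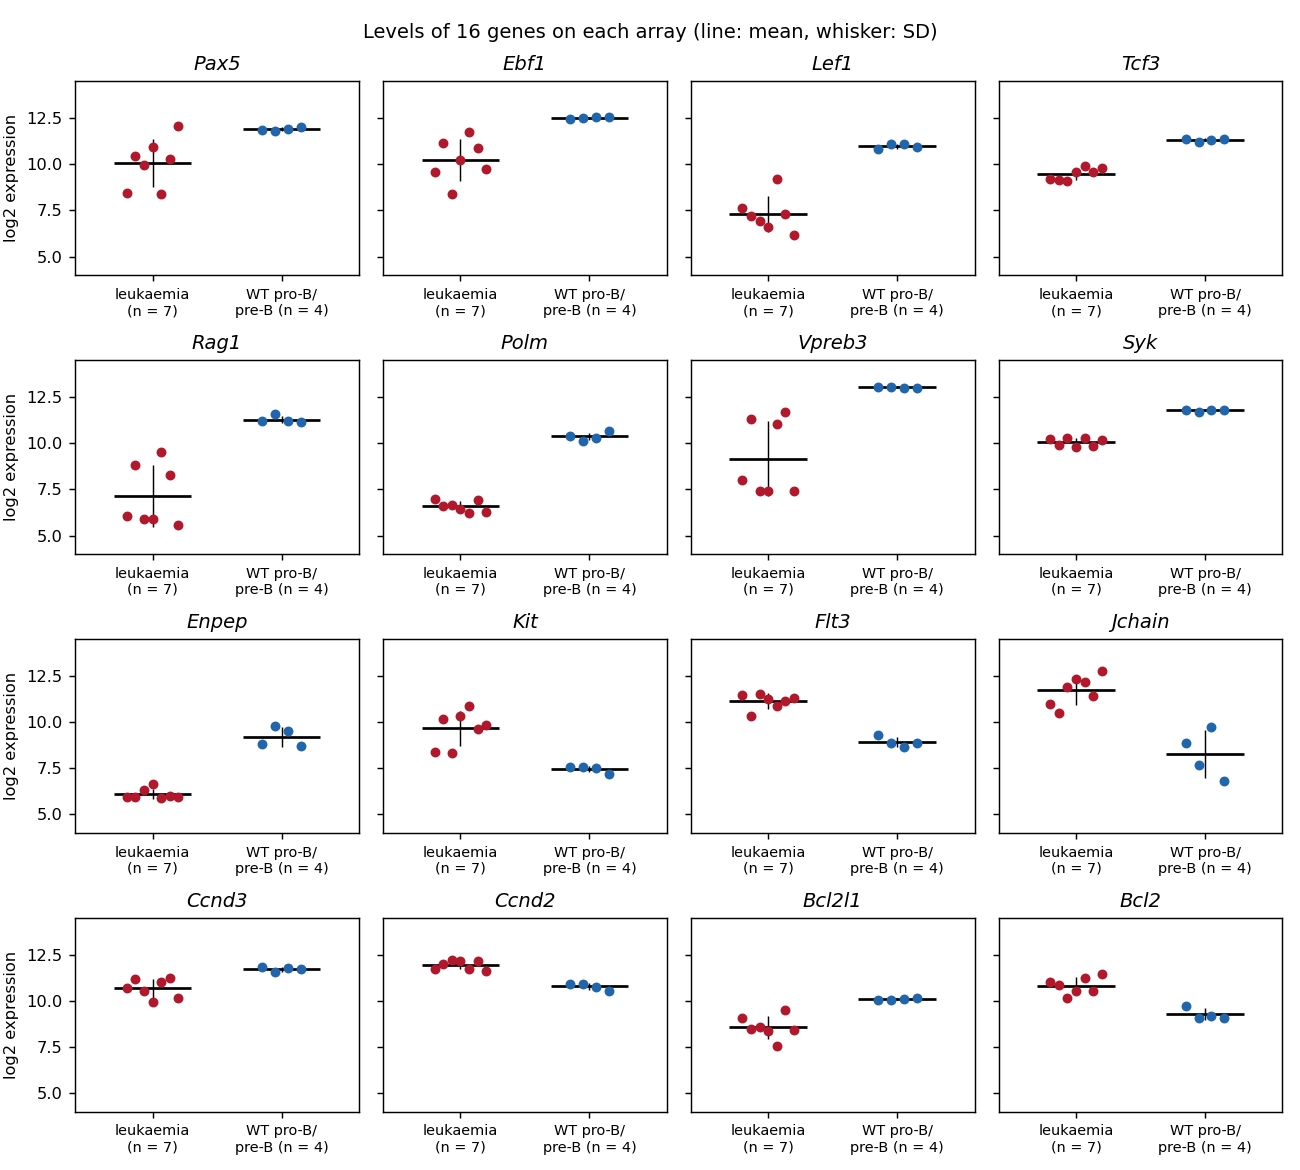
Log2 intensity (y axis) of 16 genes in each of the 7 heterozygous leukaemias (left in each panel) and the 4 wild-type pro-B/pre-B arrays (right); lines mark group means and whiskers the SD. Polm shows 2 compact groups, whereas Rag1 and Pax5 spread widely over the leukaemias.

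Most transcription factors of B cell development were lower. Of 27 measured, 16 were called lower and 2 higher (1 when all 24 arrays share the spread, with sex as a covariate, in female mice only and with the replicate block), with a median change of -1.32, against a median of -0.05 over all genes. Bach2, a repressor that restrains plasma cell fate and acts at the pre-B cell checkpoint, read 8.08, 8.93 and 9.19 in the leukaemias, against 12.19, 12.14, 12.29 and 12.39 in the wild-type cells, a change of -3.58 ± 0.20 (adjusted p 1.93e-06). Ikzf3, which encodes Aiolos, changed by -3.48 ± 0.24 (7.59e-06), and Irf4, which together with Irf8 drives the pre-B cell out of cycle, by -2.71 ± 0.38 (0.000573). Tcf3, which encodes the E2A proteins, read 9.07, 9.59 and 9.92 in the leukaemias, against 11.37, 11.22, 11.32 and 11.39 in the wild-type cells, a change of -1.85 ± 0.16 (2.85e-05). These 4 had no overlap between groups.

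Ebf1, which specifies the B lineage together with PAX5, was lower and uneven, with 8.37, 10.25 and 11.72 in the leukaemias, against 12.47, 12.48, 12.54 and 12.54 in the wild-type cells. Its call (-2.27 ± 0.53, adjusted p 0.0098) was lost with sex as a covariate (0.0598) and in female mice only (0.0882). Foxo1, an activator of Rag1 and Rag2, changed by -2.03 ± 0.27 (0.00039). Id2, an inhibitor of E proteins, was called higher with 10.86, 12.13 and 12.69 in the leukaemias, against 11.13, 10.75, 10.87 and 10.60 in the wild-type cells (1.25 ± 0.30, adjusted p 0.0106), a call lost in the same 2 settings (0.0719 and 0.102). Id3, another inhibitor of E proteins, was lower (-1.49 ± 0.13, 3.19e-05). Spi1, which encodes PU.1 of myeloid and B cells, differed by 0.44 ± 0.27 with an adjusted p of 0.239.

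Genes known to be switched on by PAX5 were lower as a list. Of 20 measured, 14 were called lower and none higher, with a median of -1.99 and 9 lower calls with sex as a covariate. Cd72, a B cell inhibitory receptor, read 6.36, 7.45 and 10.40 in the leukaemias, against 12.24, 12.19, 11.79 and 11.83 in the wild-type cells (-3.66 ± 0.88, adjusted p 0.0117). Cd79a, a signalling chain of the B cell receptor, read 8.88, 10.59 and 11.95 in the leukaemias, against 12.84, 12.73, 12.85 and 12.95 in the wild-type cells (-2.35 ± 0.54, 0.009). Both calls were lost with sex as a covariate (adjusted p 0.0945 and 0.0602), although no leukaemia reached the lowest wild-type array for either gene.

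Genes known to be held off by PAX5 moved the other way: of 15 measured, 7 were called higher and 1 lower, with a median of 0.68. The lower count was 0 with sex as a covariate, with the replicate block and without any 1 of the 4 wild-type arrays. Flt3, a growth factor receptor of lymphoid progenitors, read 10.33, 11.24 and 11.52 in the leukaemias, against 9.31, 8.86, 8.63 and 8.85 in the wild-type cells, a change of 2.22 ± 0.22 (adjusted p 6.61e-05). Csf1r, the receptor for M-CSF and also a macrophage gene, read 9.24 to 12.25 in the leukaemias, against 6.84, 6.72, 6.52 and 6.65 in the wild-type cells (3.57 ± 0.47, 0.00039). Leukaemia 7, the lowest of the 7 on the macrophage list, had the highest Csf1r and also the highest Pax5 (12.06). The part of macrophage levels or of Pax5 in the Csf1r values was not tested. Jchain, the joining chain of secreted antibodies, changed by 3.45 ± 0.57 (0.00152) over wild-type arrays that themselves ran at 8.86, 7.68, 9.73 and 6.81. Emb, a membrane glycoprotein, changed by 1.91 ± 0.34 (0.00239), and Slamf6, a lymphocyte receptor, was the lower member (-1.22 ± 0.35, 0.0247). The adjusted p of Slamf6 was 0.184 with sex as a covariate, 0.0676 with the replicate block and 0.0562, 0.0565, 0.0596 and 0.0693 without wild-type array 1, 2, 3 and 4.

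Of 17 measured genes of V(D)J recombination and the surrogate light chain, 12 were called lower (8 with sex as a covariate) and none higher, with a median of -0.95. The other 5 were Igll1, Vpreb2, Xrcc5, Prkdc and Poll, and the fitted difference of the last 3 was above 0. Rag2, the partner of Rag1, read 4.88, 5.17 and 7.84 in the leukaemias, against 9.44, 9.70, 9.26 and 8.90 in the wild-type cells, a change of -3.38 ± 0.56 (adjusted p 0.00165). Lig4, the ligase of end joining, changed by -2.97 ± 0.42 (0.000605), and Nhej1, its cofactor XLF, by -0.80 ± 0.13 (0.0014). Rag1, Rag2 and Lig4 had no leukaemia in the wild-type range, and leukaemia 2 or leukaemia 5 was the highest for each of them.

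Dntt, the template-free polymerase TdT, separated the leukaemias, with 5.80, 10.39, 6.73, 7.10, 10.23, 8.58 and 5.63 in leukaemias 1 to 7, against 10.92, 10.86, 10.77 and 10.37 in the wild-type cells. Leukaemias 2 and 5 lay at or just under the wild-type range. Its call (-2.95 ± 0.93, adjusted p 0.0373) was lost with sex as a covariate (0.269), in female mice only (0.229), and without leukaemia 1 (0.0611), 3 (0.0597), 4 (0.0606) or 7 (0.0528) or wild-type array 1 (0.0873), 2 (0.0804), 3 (0.0866) or 4 (0.0775). Igll1 read 9.82, 12.78, 7.96, 9.53, 12.96, 11.79 and 9.53 in leukaemias 1 to 7, below every wild-type array, and missed the threshold (-2.52 ± 0.89, adjusted p 0.0566). It passed without leukaemia 2 (0.0315) or 5 (0.0236) and in 7 settings that keep all arrays, with an adjusted p between 0.0112 and 0.0494. Leukaemias 2 and 5 were again the closest to the wild-type cells.

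In receptor signalling, 9 of 23 genes were called lower and 3 higher (1 with sex as a covariate). Syk, the kinase that starts the pre-B cell receptor signal, read 9.78, 10.17 and 10.29 in the leukaemias, against 11.80, 11.70, 11.78 and 11.81 in the wild-type cells, a change of -1.71 ± 0.11 (adjusted p 3.5e-06). Btk, the Tec kinase downstream of it, had a smaller but tight fall, with 9.56, 9.60 and 9.71 in the leukaemias, against 10.17, 10.27, 10.13 and 10.16 in the wild-type cells (-0.56 ± 0.05, 1.95e-05). Cd79b, the other signalling chain of the receptor, changed by -1.21 ± 0.21 (0.00236), with 11.31 to 12.64 in the leukaemias, against 13.18 to 13.22 in the wild-type cells. The 3 genes had no overlap between groups.

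Surface molecules of mature B cells were mixed, with 3 of 24 called higher (5 with array weights, 1 with the replicate block) and 6 lower. Of all genes, 10.3% were higher and 17.5% lower. Cd86, a costimulatory ligand that macrophages and dendritic cells also carry, changed by 2.34 ± 0.38 (adjusted p 0.00132), and Fcmr, the IgM Fc receptor, by -3.03 ± 0.46 (0.000945). Among 15 surface antigens of early stages, 5 were called higher and 2 lower, the lower count being 5 when all 24 arrays share the spread, after median centring, with a spread per group, with the replicate block and without leukaemia 5, 6 with array weights and 1 with sex as a covariate. Kit, the stem cell factor receptor of pro-B cells and progenitors, read 8.33, 9.85 and 10.88 in the leukaemias, against 7.54, 7.57, 7.50 and 7.21 in the wild-type cells (2.19 ± 0.46, adjusted p 0.00543). Enpep, the pre-B antigen BP-1, read 5.89, 5.96 and 6.65 in the leukaemias, against 8.78, 9.77, 9.51 and 8.70 in the wild-type cells (-3.09 ± 0.22, 8.94e-06). The progenitor antigen Cd34 changed by 1.51 ± 0.38 (0.0141) and the pro-B antigen Spn, or CD43, by 0.55 ± 0.13 (0.00939), each with no overlap. With the replicate block the adjusted p of Spn was 0.0685.

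In the IL-7, JAK and STAT5 list of 19, 2 genes were called higher and 1 lower (3 lower with array weights), beside 10.3% and 17.5% of all genes. The list median of 0.17 became -0.05 with sex as a covariate and in female mice only. The 2 higher calls were Cish and Jak2. Cish, a STAT5 target that damps cytokine signalling, read 8.49, 7.37, 6.98, 10.09, 8.69, 8.44 and 10.97 in leukaemias 1 to 7, against 6.82, 6.87, 6.66 and 6.61 in the wild-type cells (1.98 ± 0.66, adjusted p 0.0468). Jak2, a cytokine receptor kinase, changed by 0.91 ± 0.27 (0.0301). No leukaemia was as low as the highest wild-type array for either gene. Neither call held with sex as a covariate (0.332 and 0.102), in female mice only (0.125 and 0.0769) or without any 1 of the 4 wild-type arrays, where the adjusted p lay between 0.0853 and 0.111 for Cish and between 0.0553 and 0.089 for Jak2. Leaving out leukaemia 1 (0.0662), 4 (0.0716), 5 (0.0628) or 6 (0.059) also ended the call for Cish, as did quantile normalisation (0.0569) and the replicate block (0.121), and leaving out leukaemia 2 (0.0517) that for Jak2.

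Among 20 genes of the BCL2 family and cell death, 6 were called higher and 5 lower. Bcl2, which blocks apoptosis, read 10.12, 10.85 and 11.46 in the leukaemias, against 9.74, 9.08, 9.18 and 9.08 in the wild-type cells, a change of 1.55 ± 0.24 (adjusted p 0.00107). Its relative Bcl2l1, which encodes BCL-XL, went the other way, with 7.55, 8.50 and 9.51 in the leukaemias, against 10.05, 10.02, 10.11 and 10.14 in the wild-type cells (-1.51 ± 0.29, 0.00352). Mcl1, another survival member, fell by 0.71 (SE 0.11, 0.000933). None of the 3 overlapped between groups.

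Of 44 genes of mitosis and the spindle checkpoint, 35 were called lower and none higher, with a median of -0.49. The count was 23 with sex as a covariate and 13 when all 24 arrays share the spread, and the median lay between -0.58 and -0.41 in every alternative run. Bub1b, the checkpoint kinase BubR1, read 9.91, 10.13 and 10.23 in the leukaemias, against 10.77, 10.71, 10.88 and 10.78 in the wild-type cells (-0.70 ± 0.07, adjusted p 8.43e-05). Bub3, its partner, changed by -0.83 ± 0.06 (9.67e-06) and Foxm1, an activator of mitotic genes, by -0.76 ± 0.08 (0.000115). The leukaemias lay below every wild-type array for the 3 genes. The changes were below 2-fold, and the range of the 7 leukaemias was narrower for these genes than for Pax5 or Rag1.

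Of 41 DNA replication genes, 6 were called lower and 1 higher, with a median of -0.15. Neither count stood above the share over all genes, 17.5% lower and 10.3% higher. The higher count was 0 when all 24 arrays share the spread, with sex as a covariate, in female mice only, with the replicate block and without any 1 of the 4 wild-type arrays. The lower count depended on the processing: it was 14 after median centring, 13 with a spread per group, 12 with array weights and without leukaemia 5, 3 after cyclic loess and without leukaemia 1, 3 or 4 or wild-type array 1, 2 or 4, 2 without wild-type array 3 and in female mice only, and 1 with sex as a covariate. Rrm2, a subunit of ribonucleotide reductase, read 9.60, 10.12 and 11.40 in the leukaemias, against 11.57, 11.52, 11.66 and 11.75 in the wild-type cells (-1.35 ± 0.31, adjusted p 0.00871), and its adjusted p was 0.0553 with sex as a covariate.

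The D cyclins moved in both directions. Ccnd2 read 11.62, 11.97 and 12.19 in the leukaemias, against 10.93, 10.90, 10.75 and 10.54 in the wild-type cells (1.16 ± 0.13, adjusted p 0.000157). Ccnd1 read 9.54, 10.66 and 12.12 in the leukaemias, against 9.07, 8.61, 8.74 and 8.46 in the wild-type cells (2.14 ± 0.45, 0.00575). Ccnd3, the D cyclin that pre-B cells need to expand, read 9.92, 10.68 and 11.21 in the leukaemias, against 11.85, 11.53, 11.75 and 11.71 in the wild-type cells (-1.04 ± 0.24, 0.00908), with an adjusted p of 0.076 with sex as a covariate. Each of the 3 separated the groups without overlap. Cdk6, their kinase partner, changed by 1.09 ± 0.16 (0.000897). The inhibitor Cdkn1b, or p27, changed by -0.92 ± 0.14 (0.00111), the retinoblastoma gene Rb1 by -1.16 ± 0.24 (0.00547) and E2f2, a transcription factor of S phase entry, by -2.20 ± 0.44 (0.00465). In this list of 20, 3 genes were higher and 6 lower, or 3 lower with sex as a covariate.

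**Figure D3:**
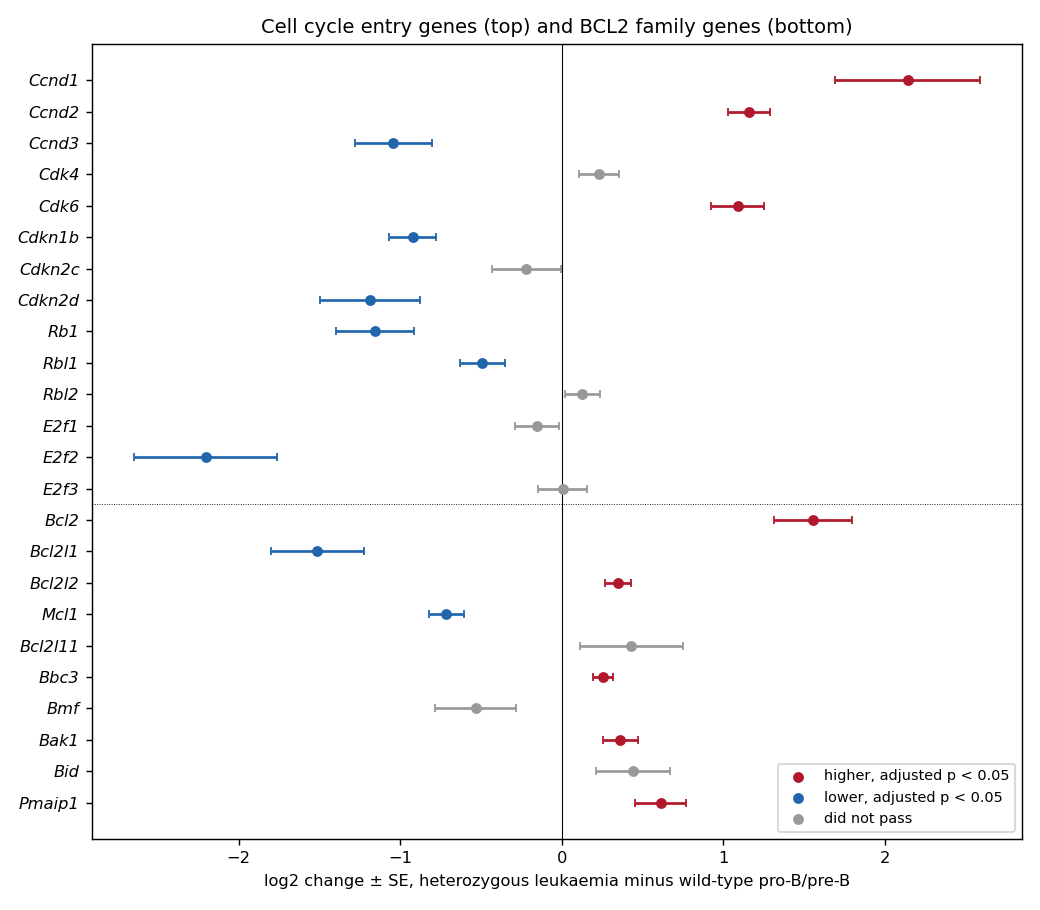
Log2 change, heterozygous leukaemia minus wild-type pro-B/pre-B (x axis, with standard error), of 24 genes of cell cycle entry and the BCL2 family (y axis), with called genes in colour. Ccnd1, Ccnd2, Cdk6 and Bcl2 lie to the right of 0, and Ccnd3, Cdkn1b, Rb1, E2f2, Bcl2l1 and Mcl1 to the left.

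Mitotic genes are known to share a promoter element, the cell cycle genes homology region, whose letters are TTTGAA. The 250 bases before the transcription start of Ccnb2 (chr9:70421555-70421804, minus strand) and Prc1 (chr7:80294226-80294475, plus strand, 1 of its 2 windows) in RefSeq's GRCm38.p6 are shown. They were chosen because both hold those 6 letters, given in capitals. Whether the letters are the element in either gene was not tested. Each is 5′ to 3′ in the direction of the gene.
Ccnb2: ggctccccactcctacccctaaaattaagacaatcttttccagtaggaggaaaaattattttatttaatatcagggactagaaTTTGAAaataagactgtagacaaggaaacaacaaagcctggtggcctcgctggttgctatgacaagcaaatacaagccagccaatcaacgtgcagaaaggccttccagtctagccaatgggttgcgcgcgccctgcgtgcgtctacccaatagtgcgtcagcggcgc
Prc1: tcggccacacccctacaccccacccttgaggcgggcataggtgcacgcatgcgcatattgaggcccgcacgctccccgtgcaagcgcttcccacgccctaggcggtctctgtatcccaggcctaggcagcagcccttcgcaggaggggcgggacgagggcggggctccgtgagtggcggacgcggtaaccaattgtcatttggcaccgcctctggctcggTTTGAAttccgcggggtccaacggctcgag
Counted from the start, the match begins at -167 in Ccnb2 and at -30 in Prc1. On either strand, TTTGAA was present in the windows of 12 of 36 mitosis genes with a window (33.3%), of 8 of the 28 among them that were called (28.6%) and of 18.3% of 27025 genes. A match of letters is a description and not a binding site. Ccnb2, the cyclin B2 gene, read 11.33, 11.48 and 11.83 in the leukaemias, against 12.25, 12.09, 12.34 and 12.23 in the wild-type cells (-0.67 ± 0.11, adjusted p 0.00123). Prc1, which bundles the spindle midzone, read 8.88, 9.06 and 9.31 in the leukaemias, against 9.72, 9.84, 9.90 and 9.77 in the wild-type cells (-0.75 ± 0.09, 0.000224). Neither gene overlapped between groups, and the call for Prc1 was lost when all 24 arrays share the spread (adjusted p 0.0722).

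In the list of MYC and ribosome biogenesis, 16 of 40 were called higher and 2 lower, with a median of 0.40. The higher count was 4 with sex as a covariate, 7 in female mice only, 9 with the replicate block, 8 without wild-type array 1, 10 without wild-type array 3 and 7 without wild-type array 4, while the median stayed between 0.30 and 0.47. Utp20, a component of the small subunit processome, changed by 0.77 ± 0.15 (adjusted p 0.00455), with 8.96 to 9.79 in the leukaemias, against 8.53 to 8.65 in the wild-type cells. Myc itself read 11.32, 10.38, 9.74, 11.73, 11.67, 10.32 and 10.65 in leukaemias 1 to 7, against 9.77, 9.84, 9.69 and 9.66 in the wild-type cells. Leukaemia 3 lay within the wild-type range and the other 6 above it. The call for Myc (1.09 ± 0.36, adjusted p 0.0429) was lost with sex as a covariate (0.215), in female mice only (0.186), with the replicate block (0.0979), and without leukaemia 1 (0.0738), 4 (0.06), 5 (0.0592) or 7 (0.0531) or wild-type array 1 (0.0889), 2 (0.0775), 3 (0.0989) or 4 (0.105).

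Of 43 cytoplasmic ribosomal protein genes, 10 were called higher and none lower, with a median of 0.18. The count was 16 when all 24 arrays share the spread, 17 with array weights and with a spread per group, 22 without leukaemia 6, 6 without wild-type array 1, 3 or 4, 5 with sex as a covariate and 3 after median centring. Of 23 genes of glycolysis and glucose uptake, 11 were called higher and 4 lower, with a median of 0.36; the lower count was 2 with sex as a covariate and without wild-type array 1, 3 or 4. Slc2a3, the glucose transporter GLUT3, read 9.61, 10.31 and 10.98 in the leukaemias, against 8.96, 8.88, 8.40 and 8.45 in the wild-type cells (1.62 ± 0.27, adjusted p 0.00177). Slc2a1, the transporter GLUT1, overlapped between groups (0.32 ± 0.19, 0.231), and passed without leukaemia 3 (0.0447). Aldoa, the glycolytic aldolase, changed by 0.99 ± 0.09 (5.66e-05). Pdk1, a kinase that holds pyruvate dehydrogenase inactive, read 8.94, 9.54 and 9.79 in the leukaemias, against 7.84 ± 0.13 (SD, n = 4) in the wild-type cells (1.56 ± 0.15, 7e-05). Pdk2, an isoenzyme of it, moved the other way (-1.71 ± 0.27, 0.00129).

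The list of metabolic gatekeepers under PAX5 and IKZF1 held 17 genes, 3 of them called higher and 4 lower (2 with sex as a covariate). Its median of 0.11 became -0.05 with sex as a covariate and in female mice only. Cnr2, the cannabinoid receptor of B cells, changed by -1.17 ± 0.23 (adjusted p 0.00404). Among 72 subunits of oxidative phosphorylation, 11 were called higher and 4 lower (10.3% and 17.5% of all genes were). The higher count was 7 after median centring and 17 with array weights and without leukaemia 6. The lower count was 6 with array weights and 2 without leukaemia 1 or 6 or wild-type array 2. It was 1 with sex as a covariate, after cyclic loess, with the replicate block and without wild-type array 1, 3 or 4. The median of 0.04 was -0.05 after median centring. Atp5g1, a subunit of the ATP synthase ring, read 11.46, 11.74 and 11.88 in the leukaemias, against 10.56, 10.64, 10.52 and 10.37 in the wild-type cells (1.18 ± 0.09, adjusted p 1.04e-05).

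Amino acid transporters differed among themselves, with 5 of 17 higher and 2 lower (1 lower with sex as a covariate, in female mice only and without wild-type array 3 or 4). Slc7a5, the large neutral amino acid transporter LAT1, changed by 1.28 ± 0.22 (adjusted p 0.00201). Slc1a5, the glutamine transporter ASCT2, read 8.53, 9.69 and 10.66 in the leukaemias, against 11.87, 11.78, 11.92 and 11.91 in the wild-type cells (-2.16 ± 0.35, 0.00147). Of 23 antioxidant genes, 7 were higher and 1 lower. Gpx4, which reduces lipid peroxides, changed by 0.87 ± 0.11 (0.00039), and the member that was lower was Gclc, the first enzyme of glutathione synthesis, which changed by -1.29 ± 0.11 (2.61e-05).

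**Figure D4:**
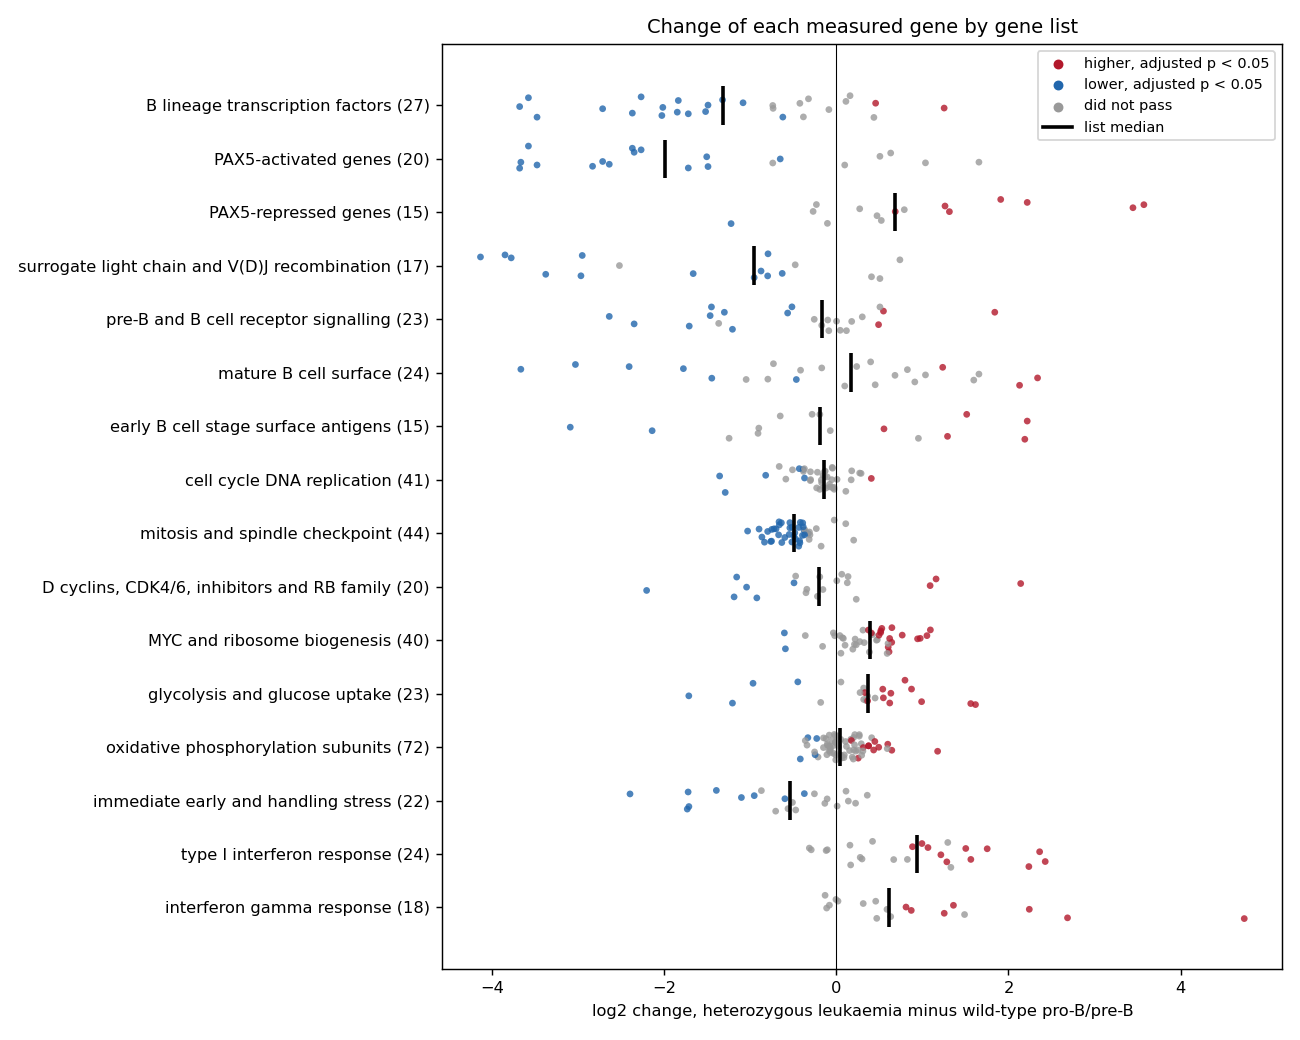
Log2 change, heterozygous leukaemia minus wild-type pro-B/pre-B (x axis), of each measured gene in 16 lists (y axis), with called genes coloured by direction, uncalled genes in grey and a bar at each list's median. The medians run from -1.99 for genes activated by PAX5 to 0.94 for the type I interferon response.

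Of 24 type I interferon response genes, 11 were called higher and none lower, with a median of 0.94. The count was 4 with sex as a covariate and 6, 6, 7 and 5 without wild-type array 1, 2, 3 and 4, and the median lay between 0.84 and 1.37 in every alternative. Many of these genes are known to be bound by interferon-activated factors at paired GAAA units, searched here as GAAA, any 2 bases and GAAA again. The 250 bases before the start of Ifit1 (chr19:34640639-34640888, plus strand) and Oas1a (chr5:120907526-120907775, minus strand) are shown because each holds 2 matches, given in capitals. They come from RefSeq's GRCm38.p6 and are written 5′ to 3′ in the direction of the gene.
Ifit1: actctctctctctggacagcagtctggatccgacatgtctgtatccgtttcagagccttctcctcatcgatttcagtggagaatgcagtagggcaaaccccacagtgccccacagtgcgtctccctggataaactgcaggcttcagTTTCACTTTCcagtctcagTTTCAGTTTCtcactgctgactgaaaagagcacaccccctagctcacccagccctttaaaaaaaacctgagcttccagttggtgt
Oas1a: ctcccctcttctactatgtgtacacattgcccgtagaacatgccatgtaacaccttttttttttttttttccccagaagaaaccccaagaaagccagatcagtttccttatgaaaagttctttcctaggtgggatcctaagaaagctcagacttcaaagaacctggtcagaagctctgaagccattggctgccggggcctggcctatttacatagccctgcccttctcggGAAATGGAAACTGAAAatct
In Ifit1 the matches lie on the opposite strand and begin at -104 and -85 from the start, and in Oas1a they overlap and begin at -20 and -14. On either strand the letters were present in the windows of 7 of 17 genes of the list (41.2%), of 3 of the 8 among them that were called (37.5%) and of 3.46% of 27025 genes.

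Ifit1, an antiviral protein that binds foreign RNA, read 6.11, 7.78 and 8.94 in the leukaemias, against 5.92, 6.10, 5.96 and 5.74 in the wild-type cells (1.75 ± 0.51, adjusted p 0.0278). Its call was lost with sex as a covariate (0.0908) and without leukaemia 1 (0.0501) or wild-type array 1 (0.0663), 2 (0.0549), 3 (0.067) or 4 (0.0783). Oas1a, which activates RNase L, read 7.63, 8.31 and 8.93 in the leukaemias, against 7.16, 7.33, 7.62 and 7.05 in the wild-type cells (0.99 ± 0.28, adjusted p 0.0231), and its call was lost with sex as a covariate (0.0825) and without wild-type array 1 (0.0646), 2 (0.0506) or 4 (0.0747). Both genes had no overlap by a narrow margin. Rtp4, an interferon-induced chaperone, read 10.45, 9.93, 9.85, 10.52, 8.70, 8.13 and 7.39 in leukaemias 1 to 7, against 6.90, 7.03, 6.97 and 6.52 in the wild-type cells (2.43 ± 0.57, 0.0107). Leukaemias 1 to 4 were higher than leukaemias 5 to 7. Oas2, a relative of Oas1a, changed by 2.36 ± 0.52 (0.00719).

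Of 18 genes of the response to interferon gamma, 7 were called higher and none lower, with a median of 0.61. Gbp7, a guanylate-binding protein, read 9.16, 10.46 and 11.31 in the leukaemias, against 8.31, 8.30, 8.04 and 7.86 in the wild-type cells (2.24 ± 0.35, adjusted p 0.00121). Psmb8, a subunit of the immunoproteasome, changed by 0.81 ± 0.17 (0.00663, and 0.0673 in female mice only). Macrophages express these genes too. The type I list averaged 9.24, 9.36, 9.28, 9.06, 7.97, 8.44 and 7.74 in leukaemias 1 to 7, against 7.76 to 7.90 in the wild-type cells. The interferon gamma list averaged 9.05, 10.21, 8.90, 8.84, 8.64, 8.84 and 8.47, against 7.98 to 8.06. The part of the macrophage marker levels in either list was not tested.

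Chemokines and homing receptors counted 6 higher and 2 lower of 33 (10.3% and 17.5% of all genes were). The higher count was 12 when all 24 arrays share the spread, 13 with a spread per group and 14 with array weights. The lower count was 4 in each of those and with the replicate block. Cxcr4, the receptor that holds B cell precursors in the marrow, read 11.11, 11.21 and 11.78 in the leukaemias, against 12.16, 12.33, 12.16 and 12.21 in the wild-type cells (-0.92 ± 0.11, adjusted p 0.000283). Immediate early genes, which respond within minutes to stimulation or to cell handling, were lower or not called: 9 of 22 were lower and none higher, with a median of -0.54. Btg2, an antiproliferative member, changed by -2.40 ± 0.28 (0.000214) and Fosb, an AP-1 subunit, by -1.72 ± 0.17 (6.23e-05), both with no overlap.

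In the NF-kB list of 17, 4 genes were higher and 5 lower (3 lower with sex as a covariate and without wild-type array 3 or 4). Nfkbid, a nuclear inhibitor of NF-kB, read 7.60, 7.82 and 8.16 in the leukaemias, against 9.80, 10.13, 10.33 and 10.40 in the wild-type cells (-2.28 ± 0.14, adjusted p 3.58e-06). Icam1, an adhesion molecule, changed by 1.08 ± 0.14 (0.000312) and Tnf, the inflammatory cytokine, by 1.37 ± 0.18 (0.0004).

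In the serpin list, 5 of 8 were higher and none lower, with a median of 1.63, and the count was 2 with sex as a covariate and without wild-type array 2, 3 or 4, and 3 without wild-type array 1. Beside Serpinb9d, Serpinb6a, an intracellular protease inhibitor, read 8.15, 8.90 and 9.36 in the leukaemias, against 7.01, 6.99, 7.01 and 7.21 in the wild-type cells (1.70 ± 0.24, adjusted p 0.000609). Igf2bp3, an RNA-binding protein of fetal tissue and of some leukaemias, was the 1 of 8 oncofetal genes that was called. The higher count was 2 when all 24 arrays share the spread, after quantile normalisation, after cyclic loess and with array weights. It was also 2 with a spread per group, a filter on dim genes or the replicate block, and without leukaemia 1 or 5. The lower count was 3 after median centring, 2 after quantile normalisation and with array weights, and 0 or 1 elsewhere. Igf2bp3 read 7.80, 9.19 and 9.60 in the leukaemias, against 6.13, 6.08, 6.36 and 6.23 in the wild-type cells (2.90 ± 0.29, 7.74e-05), with no overlap.

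Of 15 histone deacetylases and sirtuins, 7 were called lower (4 with sex as a covariate) and 3 higher. The higher count was 0 with sex as a covariate and without wild-type array 1, 2 or 3, and 1 in female mice only, after median centring and without wild-type array 4. Hdac8, a class I deacetylase on the X chromosome, read 8.25, 8.40 and 8.60 in the leukaemias, against 10.29, 10.45, 10.37 and 10.50 in the wild-type cells (-1.99 ± 0.08, adjusted p 1.33e-07), and Hdac5 changed by -1.64 ± 0.17 (0.000103). Of 21 targets of p53 and DNA damage, 4 were higher (8 with array weights, 7 with a spread per group) and 5 lower. Of all genes, 10.3% were higher and 17.5% lower. Sesn1, an antioxidant p53 target, changed by 1.12 ± 0.23 (0.00515) and Plk2, a kinase, by -1.93 ± 0.23 (0.000196). For all 4 genes the groups did not overlap.

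Of the plasma cell programme, 5 of 13 genes were lower (3 with sex as a covariate and in female mice only) and 2 higher. Sdc1, the plasma cell antigen CD138 that B cell precursors also carry, changed by -1.54 ± 0.21 (adjusted p 0.000552), and Xbp1, the secretory transcription factor, by 0.69 ± 0.14 (0.00482). Xbp1 read 10.99, 11.14 and 11.62 in the leukaemias, against 10.74, 10.46, 10.77 and 10.28 in the wild-type cells. Among 23 unfolded protein response genes, 5 were higher and 5 lower, with 8 higher after cyclic loess and without leukaemia 1, and 3 with the replicate block and without wild-type array 4. Eif2ak3, the sensor PERK, was among the lower ones (-1.57 ± 0.23, 0.000676).

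The leukaemias differed from each other most in a few genes. An SD above 1 was measured for 560 genes among the 7 leukaemias and for 29 among the 4 wild-type arrays. Gria2, a glutamate receptor subunit, read 9.75, 4.95, 10.50, 11.28, 4.83, 4.74 and 11.23 in leukaemias 1 to 7. Mrgpra1 read 5.81, 5.94, 9.23, 12.38, 11.30, 7.50 and 11.40, against 5.21, 5.24, 5.32 and 5.33 in the wild-type cells. It was called higher by limma (3.81 ± 1.27, adjusted p 0.0465). That call was lost in 2 planned settings that keep the 11 arrays and in 8 of the runs that left out 1 array. H2-Ea, the alpha chain of the class II molecule I-E, read 11.83, 13.04, 11.50, 11.78, 6.32, 6.36 and 12.79, against 11.94, 11.55, 11.95 and 12.38 in the wild-type cells. Leukaemias 5 and 6 lacked most of its signal, and the group difference of -1.44 was not called (adjusted p 0.453). Common laboratory strains that lack I-E carry a deletion in this gene, and the labels give no strain.

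Killer cell and mucosal genes also varied from mouse to mouse. Kir3dl2, a killer cell receptor, read 9.86 in leukaemia 1 and 11.52 in leukaemia 7 and at most 5.93 in the other 5. Kir3dl1, a relative of it, was high in leukaemias 1, 4 and 7 (9.70, 8.28 and 10.47) and at most 5.14 in the other 4. Both genes are on the X chromosome, and leukaemias 1, 4 and 7 were counted as male. Leukaemia 6, also counted as male, read 4.37 for Kir3dl1. The natural killer cell list averaged 9.08 in leukaemia 1 and 6.78 in leukaemia 7. A part of sex or of killer cells in these values was not tested. Cdh17, an intestinal cadherin that early B cells also carry, read 12.20 and 11.56 in leukaemias 2 and 6 and 9.06 in leukaemia 3. Cd209a, a lectin of dendritic cells and monocytes, was high in the same 3 leukaemias, with 11.20, 12.62 and 9.99, and at most 7.29 in the other 4. Ccr9, a chemokine receptor of lymphoid progenitors and T cells, was at 6.96 and 5.88 in leukaemias 4 and 7 and between 10.68 and 11.70 in the other 5.

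The same leukaemias can be set beside the other groups of the series in a fit over all 24 arrays. These comparisons share the 7 leukaemias. Against preleukaemic pro-B/pre-B cells of Sca1-BCR/ABLp190+Pax5+/- mice, which carry both lesions, 44.7% of genes were called, against the leukaemias with both Pax5 copies 5.21%, and against wild-type B220+ cells 38.9%. The mitosis list, lower against wild-type pro-B/pre-B cells, had a median of 0.61 against these preleukaemic precursors (13 of 44 called higher and 1 lower, beside 16.4% and 28.4% of all genes), of 1.19 against B220+ cells (40 higher, beside 16%) and of -0.52 against the other leukaemias (none called in either direction, beside 2.12% higher and 3.08% lower of all genes). Bub1b differed by 0.65 ± 0.29 (adjusted p 0.0708) from the preleukaemic precursors and by 1.44 ± 0.24 (0.000101) from the B220+ cells. The genes activated by PAX5 had medians of -2.36 against the preleukaemic precursors (14 of 20 lower and 1 higher) and -2.75 against the B220+ cells (19 lower, beside 22.8%). Against the leukaemias with both Pax5 copies their median was 0.61, with 3 of 20 called higher and none lower, beside 2.12% and 3.08% of all genes. Pax5 averaged 10.07 ± 1.32 (SD, n = 7) in the heterozygous leukaemias, against 8.24 ± 0.21 (SD, n = 2) in those 2 leukaemias, a difference that was not called.

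Enpep was at 6.40 ± 0.23 (SD, n = 3) in the preleukaemic Sca1-BCR/ABLp190+Pax5+/- precursors, beside the 6.10 ± 0.28 (SD, n = 7) of the leukaemias (difference -0.30, adjusted p 0.314), whereas both wild-type groups were higher. Igf2bp3 was 3.41 ± 0.29 (adjusted p 4.58e-07) above the 2 leukaemias with both Pax5 copies, Klri1, a killer cell lectin-like receptor gene, 4.34 ± 0.71 (0.000836) and Serpinb9d 5.32 above them. With 2 leukaemias in that group, the adjusted p rests on the spread shared over all 24 arrays.

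**Figure D5:**
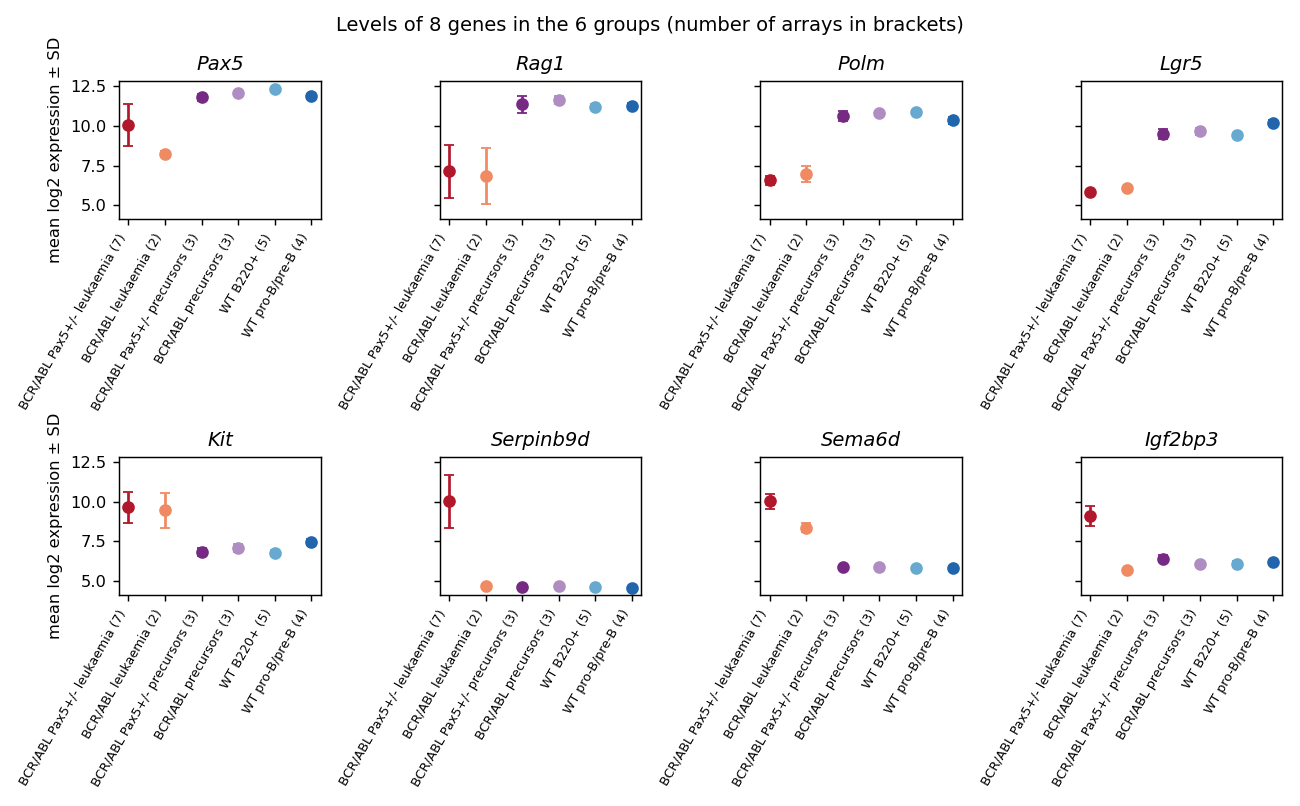
Mean log2 intensity with SD (y axis) of 8 genes in the 6 groups of the series (x axis). Of the 6 group means, that of the heterozygous leukaemias is the highest for Igf2bp3 and Serpinb9d, and both leukaemia groups lie lowest for Lgr5, Polm and Rag1.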

How the data were processed

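Total RNA from bone marrow was extracted with Trizol and labelled with biotin, per the labels' protocols, and hybridised to 1 array per sample. The deposited values are log2 intensities per probe set, and the submitters' processing notes name RMA and oligo. The arrays have no read depth, and their number limits the precision. Of 35556 probe sets, 21789 carried 1 gene symbol, 1621 several and 12146 none in the platform annotation, and only those with 1 symbol were named. Each gene was represented by the probe set with the highest mean over the 24 arrays, which gave 19938 genes. The 7 leukaemias and 4 wild-type arrays were compared with limma 3.58.1 in R 4.3.3 (lmFit and eBayes, Benjamini-Hochberg adjustment over all genes), and standard errors are those of the fit. On simulated data for this comparison (19938 genes), 52.2% of 67 genes changed by 0.5 were recovered, 88.1% of 67 changed by 1 and 93.9% of 66 changed by 2, with 5 false calls. The simulation drew independent normal noise with the same SD of a gene in both groups, and changed 200 genes. In the data the median SD was 0.169 in the leukaemias and 0.0845 in the wild-type arrays, and 5554 genes were called. The simulated rates are therefore no measure of recovery or false calls in the data.

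The groups, members and 48 gene lists were chosen with earlier results of these data known. Genes were named by rule. The rule took the 10 largest rises and falls past the test among genes whose arrays did not overlap between the groups. It also took up to 4 members of each list and the 8 with the widest spread among the leukaemias. Rag2, Dntt, Igll1, Id2, Foxo1, Spi1, Ccnd1, Ccnd3, Rb1, Myc, Slc2a1, Pdk2, Ifit1, Oas1a, Ccnb2, Prc1 and Slamf6 were named outside it, after their values were seen. List genes without a probe set of a single symbol were not analysed here. Sex was read from Xist and Y-linked genes. Replicate numbers did not pair the samples: deviations of same-numbered arrays correlated between -0.0905 and 0.0985 over 4 shared numbers. The labels call the arrays biological replicates and say no more of their source, so p-values measure the spread between these arrays.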

Additional observations from a re-analysis of the deposited data

Results flagged for a closer look

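In groups of 4 to 10 arrays, the highest or lowest array was set against the rest by Dixon's criterion for the 31 genes chosen by size of change or spread and the targeted genes, 62 groups in all, of which chance alone picks about 1 in 20. Leukaemia 7 was the low one for 4 of the genes that rose: Bgn at 8.89, Cxcl9 at 7.45, Sparc at 9.65 and Serping1 at 8.22. The same mouse had the lowest macrophage, megakaryocyte and stroma marker means, and the part of those levels in the 4 values was not tested. Bgn and Sparc are themselves on the stroma list. Without leukaemia 7 each of the 4 genes was still called higher. Leukaemia 5 was the high one for Niban3, at 11.31. Its B lineage marker mean of 10.31 was the third highest of the 7.

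The change against wild-type pro-B/pre-B cells was larger in the heterozygous leukaemias than in the 2 leukaemias with both Pax5 copies for Serpinb9d, by 5.32, and for Sema6d, by 1.65. Both differences passed the test over all genes in the limma fit to all 24 arrays. All 7 heterozygous leukaemias lay above both other leukaemias for Serpinb9d. The comparison rests on 2 arrays of the other genotype.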

How the results depend on the processing

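The count of 5554 called genes was 3228 with sex as a covariate (1277 higher and 1951 lower), 8636 after median centring (6943 lower, 19.6% of calls higher) and 7842 with array weights (3116 higher). In female mice only, a setting chosen after seeing the data, 2291 genes were lower. After cyclic loess 51.6% of calls were higher. With each array left out in turn the count lay between 3604 and 5722, with 1336 to 2195 higher and 2268 to 3604 lower, and the share of calls that were higher lay between 34.1% and 39.6%. The median change of all genes was -0.14 after median centring and 0.0048 after cyclic loess, against -0.05. The naming rule took 181 genes, and with those named outside it there were 198, not all of which are described above. Of the 198 genes, 186 passed the test. Of these, 147 kept their call in every planned setting that keeps the 11 arrays, 170 with each array left out and 147 in both. Sex as a covariate ended 33 of the calls, which is the most of any setting run. The fitted difference changed sign for H2-Ea (0.08 with the replicate block), Kir3dl2 (-0.20 with sex as a covariate and in female mice only) and Ccr9 (-0.06 without leukaemia 1 and -0.09 without leukaemia 3, over a range of -0.09 to 0.88 as each array was left out), none of which was called, and the cause was not tested. Replicate numbers did not pair the samples, and the replicate number as a block gave 4662 calls, 2037 higher and 2625 lower. Among single arrays left out, wild-type arrays ended most calls, 12 to 16 each, against 2 to 6 for a leukaemia. All wild-type arrays being from female mice, sex and group can be separated only through the leukaemias. The fitted changes with sex as a covariate are those of female mice only, from the 3 female leukaemias. Calls lost there are no measure of a sex effect.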

Other observations

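Of 25 genes of nucleotide and one-carbon metabolism, 4 were called higher and 3 lower (10.3% and 17.5% of all genes were), with a median of 0.22. The higher count was 1 with sex as a covariate, 2 in female mice only and with the replicate block, 7 after cyclic loess, with a spread per group and without leukaemia 3, and 8 with array weights. The lower count was 0 with sex as a covariate and 1 in female mice only and without any 1 of the 4 wild-type arrays. Of 24 citric acid cycle genes, 5 were higher and 1 lower with a median of 0.01, which was -0.08 after median centring. The higher count was 8 after cyclic loess and without leukaemia 6, 2 after median centring and 1 with sex as a covariate. The lower count was 7 after median centring, with array weights and with a spread per group, 5 when all 24 arrays share the spread, 4 in female mice only, 3 without leukaemia 4, 5 or 6, 2 without leukaemia 7 and with sex as a covariate, and 0 after quantile normalisation, after cyclic loess, with the replicate block and without wild-type array 1, 2 or 3. Of 19 genes of fatty acid oxidation, 5 were higher (8 after cyclic loess) and 3 lower. Ppargc1a, a coactivator of mitochondrial genes, read 5.14, 5.57 and 5.95 (lowest, median, highest) in the leukaemias, against 7.02, 7.12, 7.21 and 7.15 in the wild-type cells (-1.57 ± 0.12, adjusted p 1.48e-05 by limma). Of 26 genes of cholesterol and fatty acid synthesis, 2 were higher and 2 lower, neither share above that over all genes. The list median was 0.02, and lay between -0.14 and 0.09 in the alternative runs. In that list, Fads2, a fatty acid desaturase, read 11.05, 11.23 and 11.61 in the leukaemias, against 10.04, 9.74, 9.85 and 9.90 in the wild-type cells (1.40 ± 0.11, 1.91e-05). Neither Ppargc1a nor Fads2 overlapped between groups.

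Leukaemia 1 had Xist at 5.94 and Y-linked genes at a mean of 7.09, between the 8.71 to 9.32 of leukaemias 4, 6 and 7 and the 4.84 to 4.90 of leukaemias 2, 3 and 5. It was counted as male. Klra8, a natural killer cell receptor, read 5.17, 5.19 and 5.44 (lowest, median, highest) in the leukaemias, against 8.68, 8.25, 7.69 and 7.14 in the wild-type cells (-2.71 ± 0.23, adjusted p 2.41e-05 by limma). The wild-type values of this gene spread more than those of the leukaemias.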
